A study of Mus musculus with 16 samples.

Results

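The nuclear genes for the subunits of oxidative phosphorylation were followed through 16 RNA-seq libraries of hematopoietic stem cells (HSCs) from mouse bone marrow. Members were the rows of the count table whose symbol follows the naming patterns of the subunits (Nduf, Sdh, Uqcr, Cox4 to Cox8 and Atp5) and that had at least 10 counts in at least 8 libraries. Of 25239 rows, 88 matched by name and 78 became members, with 36 in complex I, 4 in complex II, 8 in complex III, 13 in complex IV and 17 in complex V. Rows of 2 pseudogenes (Ndufs5-ps and Cox7c-ps1) were dropped by name and 8 rows fell below the threshold. The HSCs came from mice of 4 to 6 months that were wild type for Selp (WT) or Selp knockout (KO), Selp being the gene of the adhesion receptor P-selectin. They were taken fresh after sorting (3 WT and 2 KO libraries), after culture with vehicle (3 and 3), or after 24 hours in culture with 125 ng/mL PSGL-1, the main ligand of P-selectin (2 and 3). Per the labels, the medium was StemSpan with antibiotics and 10% FCS, and held the cytokines SCF (300 ng/mL), IL-11 (20 ng/mL) and Flt-3 ligand (1 ng/mL). Whether libraries of a group stem from different mice is not stated in the labels, and p-values therefore describe the spread among these libraries, which may be technical. No strain or knockout allele is given in the sources used here.

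Oxidative phosphorylation makes ATP in the inner mitochondrial membrane. Complexes I and II pass electrons from NADH and succinate to coenzyme Q, complex III hands them to cytochrome c, complex IV gives them to oxygen, and complex V, the ATP synthase, uses the proton gradient built by complexes I, III and IV. Resting HSCs are known to rely more on glycolysis than their dividing progeny, and the respiratory chain is assembled from nuclear genes together with a few genes of mitochondrial DNA, none of which is in the count table.

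Libraries held 12590539 to 24690824 counts. Selp was at 0 to 12.5 CPM (counts scaled to library size with edgeR's TMM factors) in the KO libraries and at 16.3 to 188 CPM in the WT libraries, without overlap. The HSC marker Kit was present in every library (169.5 to 721 CPM), while Slamf1, Fgd5 and Tek were at 0 in 1 to 3 libraries each. Of 43 markers of other blood and stromal cells, 10 were at 0 in all 16 libraries, among them Cd3e, Ms4a1 and the globin gene Hba-a1. The others were detected, some at high mean levels, such as Itga2b (694 CPM), Pf4 (158), Vwf (154) and Prtn3 (149). From the same lists as the named zeros, Nkg7 reached 88.6 CPM, Epor reached 87.6 CPM and Cd79b was at 3.83 to 62.6 CPM. WT PSGL-1 replicate 1 was sparse, with 5165 of the 14124 tested genes at 0 against 1101 to 3162 in the others. No member was at 0 in any library, and all 78 passed the filter on low counts.

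Promoter sequence is shown first because 2 of the short motifs searched were found in a larger share of members than of tested genes. RefSeq windows (assembly GRCm38.p6, the mm10 build, from 250 bases before to 50 bases after a start) were found for 64 of the 78 members. The windows were searched on both strands for the palindrome of NRF1, a regulator of many respiratory genes (its letters are the capitals in the first set below), and for AAGATGGCG (YY1), CCGGAAGT (the ETS motif bound by GABPA) and CACGTG (the E-box bound by MYC). The NRF1 letters were in 5 members, 7.81% of those with a window, and in 2.24% of the tested genes with a window. Counted by window of 300 bases, they were in 7.25% of the members' and 0.971% of all 32851 windows. Here and below, all windows include those of genes not tested here, so shares by window and by tested gene have different references. Stretches of 30 bases around them follow, with the motif in capitals, each on the strand of its gene.
Atp5g2, chr15:102671070-102671099, minus strand: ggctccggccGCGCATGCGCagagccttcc
Atp5k, chr5:108434430-108434459, minus strand: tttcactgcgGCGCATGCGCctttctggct
Cox6a1, chr5:115349101-115349130, minus strand: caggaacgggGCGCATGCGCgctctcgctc
Ndufa11, chr17:56717692-56717721, plus strand: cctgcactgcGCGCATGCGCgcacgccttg
Uqcrc1, chr9:108936668-108936697, plus strand: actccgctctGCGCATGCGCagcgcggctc

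The YY1 letters were in 7 members (10.9% of those with a window, 3.32% of tested genes, and 10.1% of the members' and 1.40% of all windows). In 6 of the 7 they began 22 to 35 bases after the annotated start. The motif is again in capitals.
Atp5j, chr16:84835045-84835074, minus strand: aagtgtaggaAAGATGGCGgagtcttagct
Atp5j2, chr5:145191499-145191528, minus strand: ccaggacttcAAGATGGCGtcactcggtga
Ndufa9, chr6:126849096-126849125, minus strand: attgtgggagAAGATGGCGgccgccgtccg
Ndufc1, chr3:51408914-51408943, minus strand: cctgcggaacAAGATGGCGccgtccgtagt
Ndufs4, chr13:114388045-114388074, minus strand: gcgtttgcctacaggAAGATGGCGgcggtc
Ndufs6, chr13:73328433-73328462, minus strand: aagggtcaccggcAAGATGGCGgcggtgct
Ndufs7, chr10:80249463-80249492, plus strand: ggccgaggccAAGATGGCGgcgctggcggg

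The ETS letters were in 5 members (7.81%, against 8.73% of tested genes) and the E-box in 6 (9.38%, against 11.6%). In windows the ETS letters were in 7.25% of the members' and 3.89% of all, and the E-box in 10.1% and 7.15%. Of the 6 members with an E-box, 4 belong to the ATP synthase (Atp5g1, Atp5g3, Atp5l and Atp5pb), and the others are Ndufa7 and Ndufv1. These are matches of letters only and say nothing of binding in these cells.

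Levels between genes were compared as CPM per kilobase of transcript, averaged over the 16 libraries. The highest member was Atp5b, the catalytic beta subunit of the ATP synthase, at 875 CPM per kilobase, followed within the other complexes by Cox8a in complex IV (752), Ndufa4 (453), Uqcr10 in complex III (432) and Sdhb, the iron-sulfur subunit of succinate dehydrogenase (226). Ndufa4 carries a complex I name but is known as a subunit of complex IV. The lowest per complex were Ndufb4c (1.72), Cox4i2 (8.75), Sdhc (38.1), Uqcrc2 (93.5) and Atp5g1 (135). The place of Atp5g1 rests on a transcript length of 2655.5 bases, close to the span of its gene (chr11:96072793-96075694). Not divided by length, it averaged 358 CPM, above Atp5k (94.3) and Atp5mpl (117). The median member stood at 159.7 CPM per kilobase in complex I, 171 in II, 309 in III, 404 in IV and 322 in V. Spread over all 16 libraries was least for the ATP synthase alpha subunit gene Atp5a1 (coefficient of variation 11.1%) and greatest for Cox4i2 (67.1%).

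At the edge of the count rule, Ndufb4c was just inside with 2 to 18 counts in a library and Cox7a1, the heart and muscle form of a complex IV subunit, just outside with 0 to 79. Most of the other rows below the threshold had few counts or none. Cox6a2 had 11 counts in 1 library and 0 in the others, Cox8b had 5 in 1 library, Cox7b2 had counts in 3 of the fresh libraries (19, 44 and 1), and Cox8c and Ndufa4l2 were at 0 in all 16. Ndufs5, a complex I subunit of most tissues, was also listed at 0 in all 16 libraries, while the row of its pseudogene copy Ndufs5-ps held 39 to 113 counts in each. Reads of near-identical copies can be assigned to either row or to none, so Ndufs5 is not described further.

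The summed level of the 78 members varied most among fresh libraries. The sum was 17501, 14388 and 12878 CPM in the WT fresh libraries and 20304 and 12563 CPM in the KO fresh libraries. After vehicle it was 17370, 18177 and 22038 CPM in WT and 19610, 18527 and 19113 CPM in KO. After PSGL-1 it was 18438 and 18028 CPM in WT and 17292, 17345 and 20505 CPM in KO. Group means were 14922 ± 2357 (SD, n = 3) in WT fresh, 16433 ± 5473 (n = 2) in KO fresh, 19195 ± 2495 (n = 3) in WT vehicle and 19083 ± 542 (n = 3) in KO vehicle. Fresh and vehicle libraries overlapped because of WT fresh replicate 1 and KO fresh replicate 1. Bulk RNA cannot tell fewer cells of a type from less RNA per cell.

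KO fresh replicate 1 stood apart from KO fresh replicate 2. Members were higher in replicate 1 by a median log2 of 0.90, and 73 of 78 were above 0, while the median over all tested genes was -0.04. Transcript length and ribosomal protein genes moved with this: the 39 members with transcripts under the members' median of 756.5 bases had a median of 1.02, the 39 others 0.66, all 770 tested genes of that short class 0.68, and cytosolic ribosomal protein genes 1.26. Among the 5 fresh libraries, KO fresh replicate 1 was highest for 56 members and KO fresh replicate 2 lowest for 41. The complexes did not share this pattern evenly. Complex I summed to 6789 and 3663 CPM in the 2 KO fresh libraries and complex IV to 3976 and 2021 CPM, whereas complex II was at 861 and 907 CPM. The part of transcript length or library quality in the results below was not tested. The main medians and counts above 0 for vehicle against fresh are also given with 1 of the KO fresh libraries left out.

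**Figure D1:**
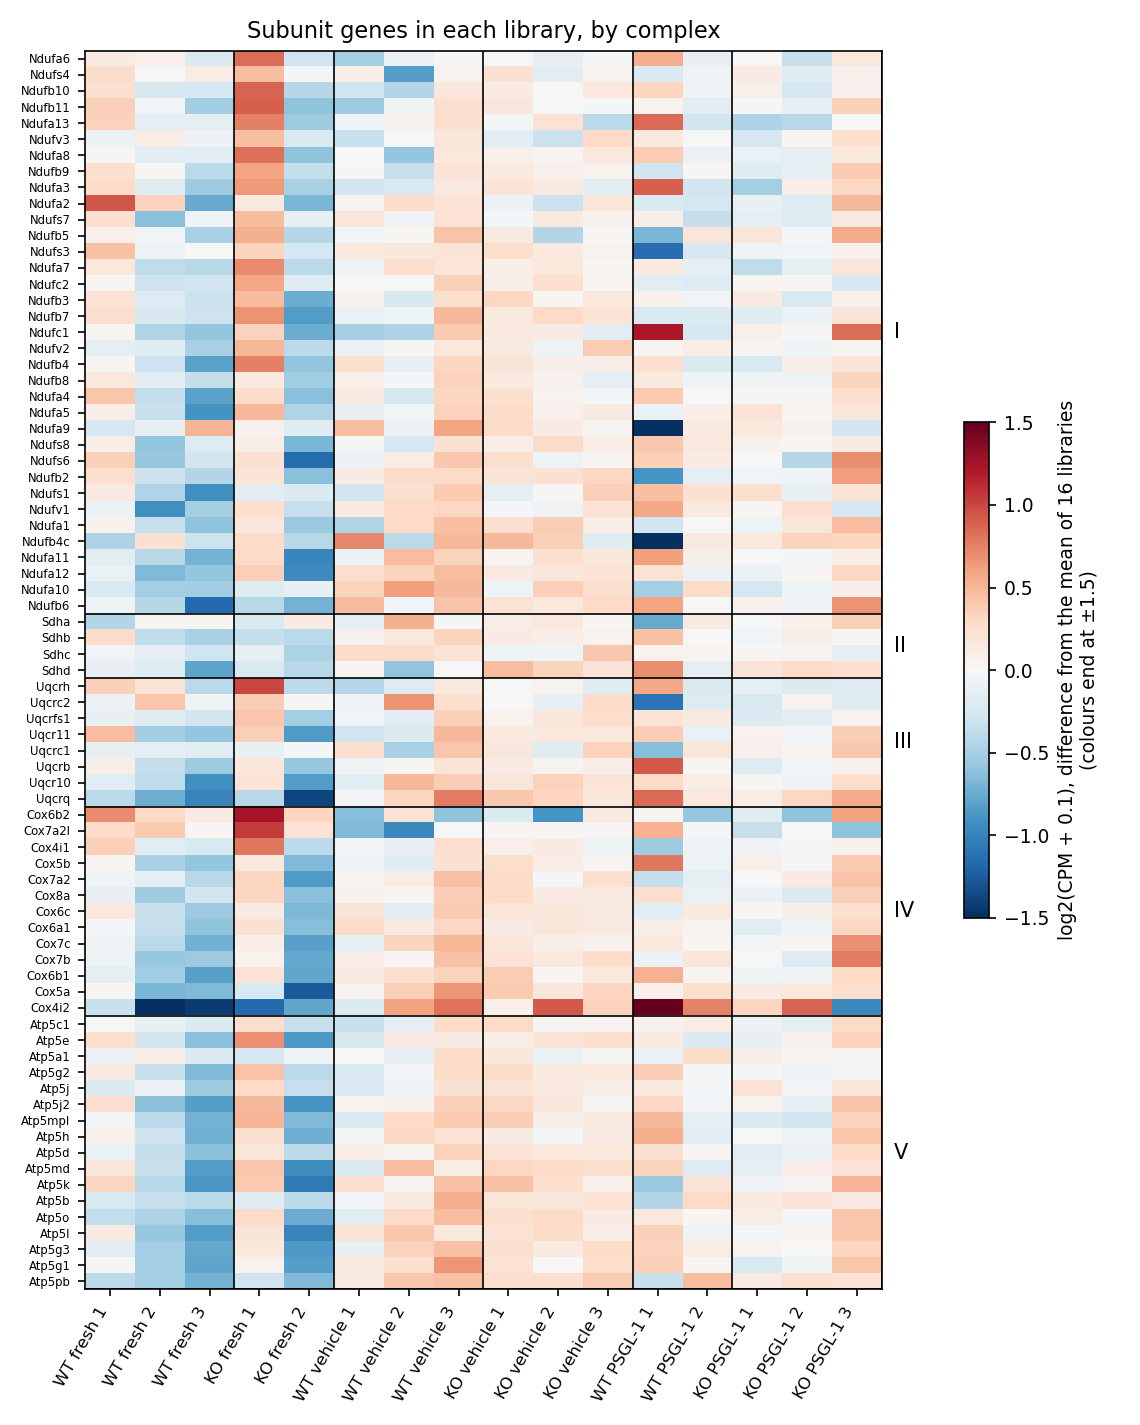
Each row is a member, with 1 member not drawn, and each column 1 library; colour gives log2(CPM + 0.1) minus the gene's mean over the 16 libraries. The wide red column of KO fresh 1 beside the blue one of KO fresh 2 and the mixed column of WT PSGL-1 1 are the libraries that stand apart.

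Complex II was the complex whose summed level separated fresh from cultured cells. It summed to 944, 933 and 838 CPM in WT fresh and 861 and 907 CPM in KO fresh. After vehicle it summed to 1030, 1185 and 1100 CPM in WT and 1164, 1146 and 1113 CPM in KO, and after PSGL-1 to 1092 and 1046 CPM in WT and 1053, 1113 and 1179 CPM in KO. Every cultured library was thus above every fresh one in this sum. Singly, each of the 4 complex II genes overlapped between fresh and vehicle libraries. In WT PSGL-1 replicate 1, the sparse library, Sdha was at 246 CPM, below its fresh range of 307 to 455 CPM. There Sdhb (344 CPM) and Sdhd (379 CPM) were at their highest of the 16 libraries. How often sums of other genes separate in this way was not tested. The sums of complexes I, III, IV and V overlapped between fresh and vehicle, for example 4500 to 6638 CPM against 6221 to 8374 CPM for complex V.

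Set against ribosomal protein genes, the members as a whole also separated. Members stood at 30.8, 31.6 and 31.2 CPM per 100 CPM of 86 cytosolic ribosomal protein genes in WT fresh and at 23.0 and 31.8 in KO fresh. In the 11 cultured libraries the ratio was 41.4 to 51.2. This ratio reflects both of its terms: the ribosomal protein genes had a median log2 change of -0.41 from fresh to vehicle, with 11 of 82 tested called lower (2.3% of all tested genes). That median was -0.14 in WT, with none called, and -0.66 in KO, with 2 called lower. Averaged over genotypes it was 0.00 without KO fresh replicate 1, with 2 called lower, and -0.65 without replicate 2, with 35 called lower. The ratio was chosen with earlier results of these data known and carries no test.

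**Figure D2:**
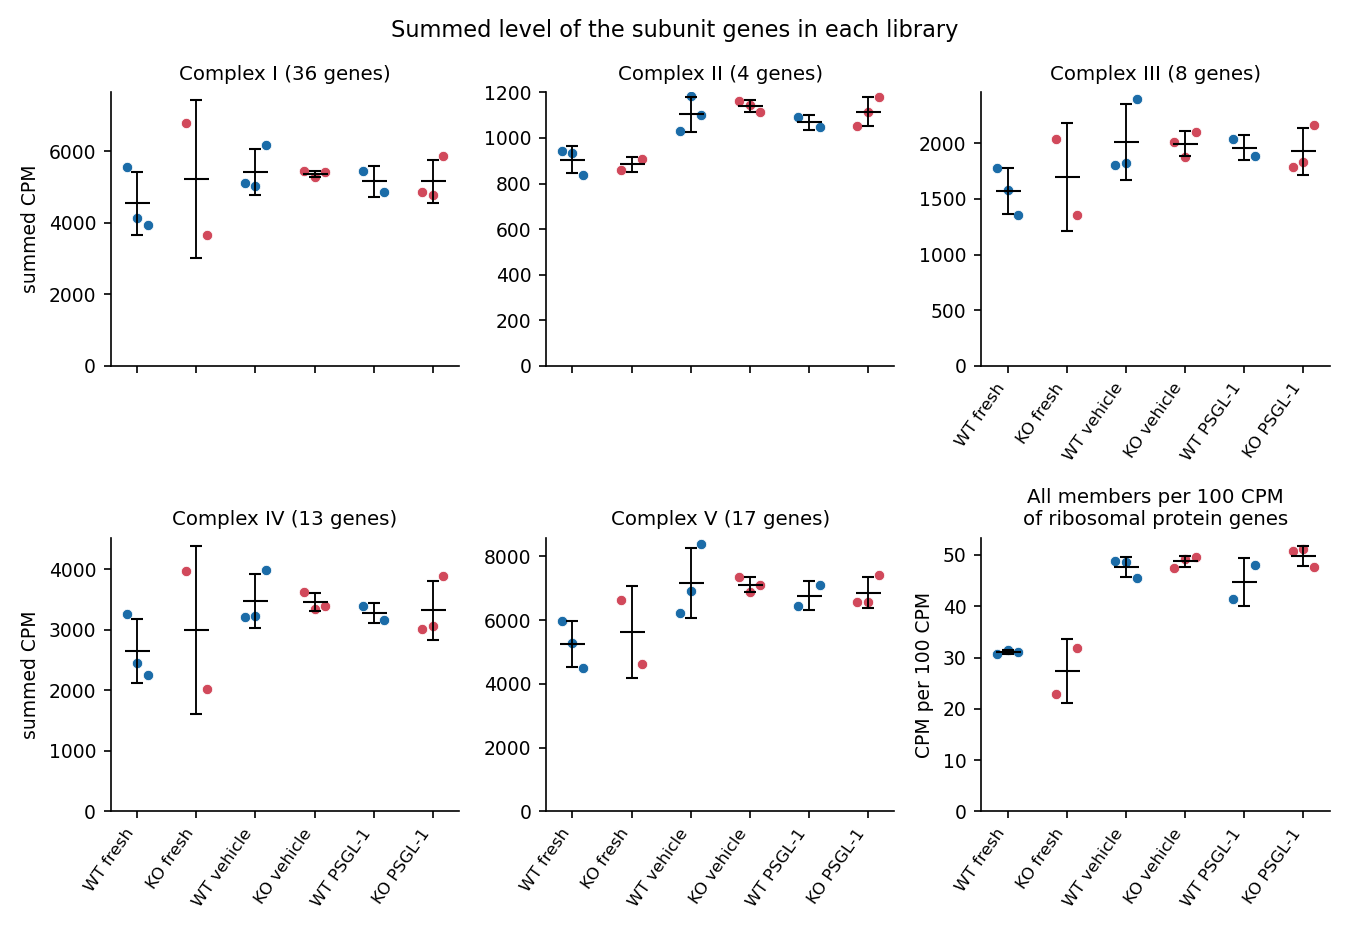
Points are libraries and bars are group means ± SD of the summed CPM of each complex, with the sum of all members per 100 CPM of ribosomal protein genes in the last panel (blue WT, red KO). Complex II lies at 838 to 944 CPM in fresh and 1030 to 1185 CPM in cultured libraries, and the ratio at 23.0 to 31.8 and 41.4 to 51.2.

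Culture with vehicle against fresh cells, averaged over both genotypes, raised 5 of 78 members and lowered none (edgeR quasi-likelihood test, Benjamini-Hochberg adjusted p under 0.05 over all tested genes). Over all 14124 tested genes 6.48% were called in either direction and 4.18% higher, so the members' share was close to the background. The direction was more uniform than the calls: 65 of 78 members had a log2 change above 0, against 46.8% of all tested genes, with a median of 0.26 against -0.07. At an unadjusted p under 0.05 there were 22 members higher and 2 lower, against 20.0% of all genes in either direction. The vehicle and fresh libraries did not overlap for 7 members that were higher (4.56% of all tested genes) and 1 that was lower (4.91%). Without KO fresh replicate 1, 19 members were higher without overlap (5.81% of all tested genes), 12 were called, all of them higher (2.59% of all tested genes, and 3.67% in either direction), and 75 were above 0 (45.4%). The members' median was 0.49 without KO fresh replicate 1, against -0.08 over all genes, and 0.13 without replicate 2, against 0.06, with 50 of 78 members above 0 (52.3% of all genes). Without WT fresh replicate 1 it was 0.38.

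By complex the medians were 0.17 in complex I with 27 of 36 above 0, 0.41 in complex II with 4 of 4, 0.22 in complex III with 7 of 8, 0.37 in complex IV with 10 of 13, and 0.38 in complex V with 17 of 17. Without KO fresh replicate 1 they were 0.38, 0.42, 0.46, 0.65 and 0.68 for complexes I to V, and without replicate 2 they were -0.05, 0.36, 0.07, 0.22 and 0.19. The sign of the complex I median thus turned with replicate 2 left out. Shorter members had a median of 0.35 and longer members 0.21, while all tested genes of the short class had a median of -0.24. Without KO fresh replicate 1 these were 0.61, 0.40 and 0.00, and without replicate 2 they were 0.13, 0.15 and -0.20. Other cell types' markers moved with culture as well. The 8 granulocyte and monocyte markers summed to 278 to 660 CPM in fresh and 37.8 to 321 CPM in vehicle libraries, the 8 erythroid markers to 47.1 to 195 and 4.36 to 57.1 CPM, and the 10 HSC markers to 2185 to 2879 and 1339 to 2124 CPM. Within the HSC list Ly6a, the gene of Sca-1, went against the sum, with means of 107 and 184 CPM in WT and KO fresh and 482 and 787 CPM in WT and KO vehicle. The 6 T and NK cell markers, 5 of them at 0 in all libraries, summed to 15.9 to 88.6 CPM in fresh and 10.4 to 21.8 CPM in vehicle. Megakaryocyte, B cell and endothelial marker sums overlapped widely between fresh and vehicle. Within the megakaryocyte list, means moved both ways. Itga2b went from 657 and 479 CPM in WT and KO fresh to 728 and 659 CPM after vehicle. In the same order, Pf4 went from 241 and 218 to 92.9 and 125 CPM, Gp9 from 83.2 and 112 to 14.7 and 25.0 CPM, and Vwf from 183 and 305 to 59.8 and 150 CPM. The part of other cell types' markers in the members' change was not tested.

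**Figure D3:**
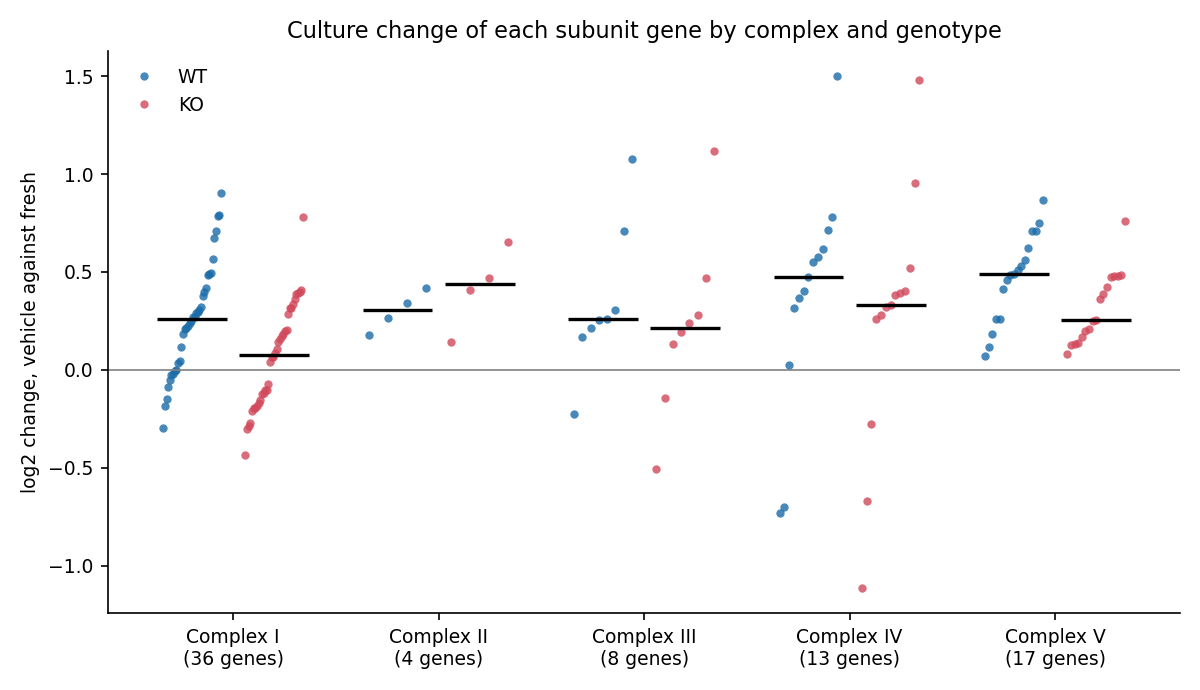
Each point is the log2 change of 1 member from fresh to vehicle in WT (blue) or KO (red), grouped by complex, and black lines are medians. All 17 complex V and all 4 complex II members are above 0 in both genotypes, and complex IV has the widest range.

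In complex V, Atp5pb rose. It encodes the b subunit of the stalk that holds the catalytic head of the ATP synthase in place, and lies at chr3:105942698-105959263. Its level was 251, 231 and 201 CPM in WT fresh and 268 and 209 CPM in KO fresh. After vehicle it was 362, 438 and 448 CPM in WT and 394, 390 and 429 CPM in KO. All 6 vehicle libraries were above all 5 fresh ones, and the log2 change was 0.82 (SE 0.15, edgeR adjusted p = 0.00410), or 1.76-fold. Atp5pb was the 1 member called within WT alone (0.87, SE 0.20, adjusted p = 0.0411), where 1.64% of all tested genes were called. That WT call was lost in 17 of 25 alternative settings, with adjusted p up to 0.183. The KO change was 0.76 (SE 0.23, adjusted p = 0.122). The 250 bases before its start (chr3:105959264-105959513, minus strand) are printed because they hold the E-box of the member with the smallest p, in capitals near the 5′ end.
Atp5pb promoter: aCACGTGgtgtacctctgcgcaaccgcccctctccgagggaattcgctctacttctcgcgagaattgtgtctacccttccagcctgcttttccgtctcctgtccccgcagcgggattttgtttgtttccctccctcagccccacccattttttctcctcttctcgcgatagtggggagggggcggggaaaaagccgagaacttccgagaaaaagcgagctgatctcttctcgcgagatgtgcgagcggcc

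Atp5b (chr10:128083307-128090388) also rose. It had 1403, 1296 and 1247 CPM in WT fresh, 1447 and 1255 CPM in KO fresh, 1604, 1819 and 2402 CPM in WT vehicle and 1865, 1856 and 1909 CPM in KO vehicle. The groups did not overlap and the log2 change was 0.52 (SE 0.14, edgeR adjusted p = 0.0337). Its call was lost in 13 of 25 alternative settings, with adjusted p up to 0.0952. None of the 4 motifs was in the promoter windows of Atp5b, Cox5a or Ndufa10.

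In complex III, Uqcrq (chr11:53427922-53430831), a small subunit close to the quinone site, had the largest change among the called members. It stood at 177, 141 and 117 CPM in WT fresh and 175 and 90.4 CPM in KO fresh. After vehicle it stood at 228, 293 and 399 CPM in WT and 309, 293 and 263 CPM in KO. The log2 change was 1.10 (SE 0.22, edgeR adjusted p = 0.00592), or 2.14-fold, without overlap. Uqcr10 was next in complex III, at 0.59 (SE 0.21, adjusted p = 0.117), which did not pass.

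In complex IV, Cox5a (chr9:57517328-57532427), which encodes subunit Va, rose. Its level was 253, 154 and 157 CPM in WT fresh, 212 and 103 CPM in KO fresh, 255, 319 and 393 CPM in WT vehicle, and 327, 279 and 310 CPM in KO vehicle. The lowest vehicle library was just above the highest fresh one. The log2 change was 0.87 (SE 0.20, edgeR adjusted p = 0.0170), and 0.67 without KO fresh replicate 2 (adjusted p = 0.0569), the 1 of 25 settings that ended the call.

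In complex I, Ndufa10 (chr1:92439486-92473825), an accessory subunit on the matrix side, rose. It had 135, 111 and 110 CPM in WT fresh, 140 and 147 CPM in KO fresh, 199.9, 245 and 222 CPM in WT vehicle and 151, 203 and 189 CPM in KO vehicle. The log2 change was 0.62 (SE 0.17, edgeR adjusted p = 0.0425), without overlap. Ndufa10 lost its call in 16 of 25 settings, with adjusted p up to 0.156. The next complex I member, Ndufb6, had a change of 0.79 (SE 0.24, edgeR adjusted p = 0.0649) without overlap between libraries. Its exons overlap those of Smim27 on the other strand by 257 bases, and without stated strand counting the reads cannot be told apart. Mean levels were 15.2 CPM for Smim27 and 101.5 CPM for Ndufb6.

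No complex II member passed singly. The changes were 0.41 (SE 0.16, edgeR adjusted p = 0.151) for Sdhb and 0.41 (SE 0.16, adjusted p = 0.162) for Sdhc, a membrane anchor. Without WT fresh replicate 1 the Sdhb change was 0.55 (edgeR adjusted p = 0.0314), the only 1 of 25 alternative settings in which it passed.

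**Figure D4:**
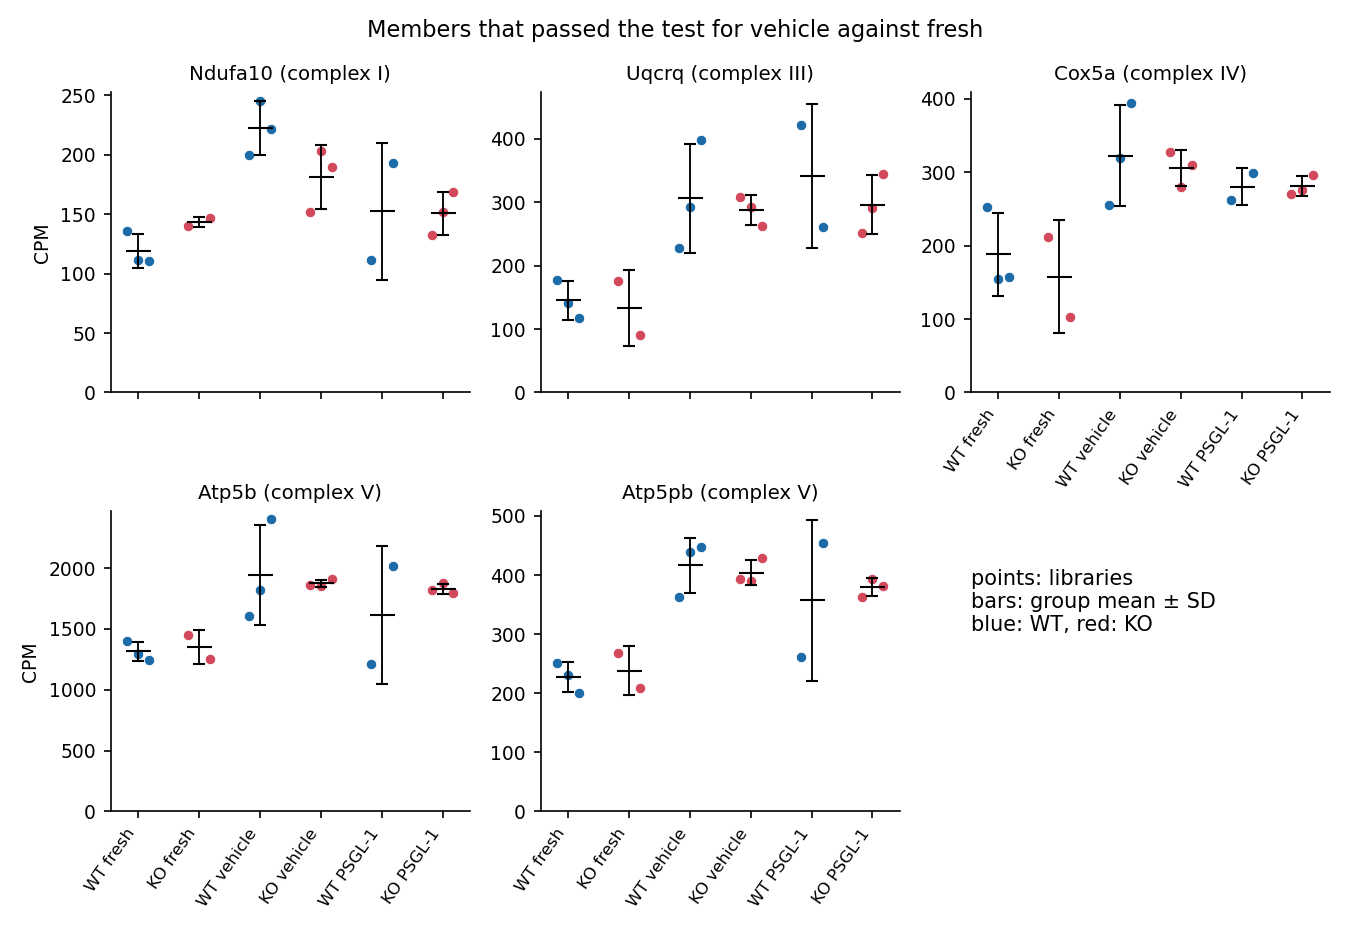
CPM of the 5 members called for vehicle against fresh, with libraries as points and group means ± SD as bars (blue WT, red KO). In each panel all vehicle libraries lie above all fresh ones; WT PSGL-1 replicate 1, the sparse library, lies low for Atp5pb, Atp5b and Ndufa10 and high for Uqcrq.

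Within each genotype culture gave fewer calls. In WT the median change was 0.31 (0.50 without WT fresh replicate 1), with 66 of 78 members above 0 (45.5% of all tested genes), and 22 members were higher without overlap (10.3% of all tested genes). In KO no member was called (1.77% of all tested genes were), 6 had an unadjusted p under 0.05 (11.7%) and DESeq2 called 2 (5.88%). The KO median was 0.20, with 58 above 0 (47.5%), and 13 members were higher without overlap (16.3%). KO medians were 0.08, 0.44, 0.22, 0.33 and 0.26 for complexes I to V, and WT medians 0.26, 0.30, 0.26, 0.47 and 0.49. Leaving out KO fresh replicate 1 gave a KO median of 0.66, and leaving out replicate 2 gave -0.11, so its sign rests on those 2 libraries. No member passed the test of the difference in culture response between genotypes (0 called and 0 at an unadjusted p under 0.05, with a background of 0.0% called and 2.5% unadjusted).

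Isoform genes of complexes IV and V shifted against each other within the same libraries, a measure that needs no scaling between libraries. Shares were taken from levels per kilobase, and differences were tested by an exact two-sided permutation of libraries within genotype, or within condition for KO against WT. There were 5 shares and 3 comparisons, giving 15 p-values adjusted together. The smallest p possible for vehicle against fresh is 0.005. The test was added after the values were seen.

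Cox6b2, known as the testis form of subunit VIb, made up 18.9, 18.7 and 19.9% of Cox6b1 and Cox6b2 together in WT fresh and 20.9 and 21.8% in KO fresh. After vehicle the share was 7.04, 11.1 and 6.28% in WT and 7.92, 6.43 and 11.4% in KO. The 5 fresh libraries lay close together, KO fresh replicate 1 included, and none overlapped with a cultured library. PSGL-1 libraries were at 7.81 to 13.8%. The mean share was 20.3% in fresh and 8.35% in vehicle (exact permutation p = 0.005, adjusted p = 0.025). By level, Cox6b1 had a log2 change of 0.55 (SE 0.19, edgeR adjusted p = 0.102) and Cox6b2 of -0.91 (SE 0.37, adjusted p = 0.183), neither of which passed alone.

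Cox7a2l encodes a protein that ties complexes III and IV into supercomplexes and is a paralog of Cox7a2. Its share of the pair was 31.2, 33.9 and 32.7% in WT fresh and 36.9 and 42.7% in KO fresh. After vehicle it was 18.05, 14.4 and 20.6% in WT and 22.9, 27.0 and 23.2% in KO (mean 36.2 against 21.0%, exact permutation p = 0.005, adjusted p = 0.025). The 3 vehicle libraries of each genotype were below all fresh ones. PSGL-1 libraries were at 39.6 and 27.7% in WT and 21.9, 24.4 and 14.8% in KO, and the highest, the sparse WT PSGL-1 replicate 1, lay within the fresh range. By level, Cox7a2l was the 1 member lower in every vehicle library than in every fresh one, at 140, 150, 117, 237 and 133 CPM in fresh and 58.7 to 117 CPM in vehicle, although the nearest values almost met. Its log2 change of -0.70 (SE 0.22, edgeR adjusted p = 0.0767) did not pass, and passed in 8 of 25 alternative settings.

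Cox4i2, the form of subunit IV known from lung and hypoxic cells, stayed a minor form. Its share beside Cox4i1 was 0.633, 0.367 and 0.432% in WT fresh and 0.259 and 0.770% in KO fresh. After vehicle it was 0.913, 1.69 and 1.51% in WT and 1.02, 1.78 and 1.35% in KO (mean 0.496 against 1.38%, exact permutation p = 0.01, adjusted p = 0.0375). WT PSGL-1 replicate 1, the sparse library, had the highest share at 5.02%, and KO PSGL-1 replicate 3 was within the fresh range at 0.491%. The CPM levels were 1.64 to 4.09 in fresh and 4.47 to 9.84 in vehicle libraries, with a log2 change of 1.49 (edgeR adjusted p = 0.393) that did not pass.

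Subunit c of the ATP synthase is made from Atp5g1, Atp5g2 and Atp5g3, which encode the same mature protein. The share of Atp5g2 was 30.4, 29.1 and 28.1% in WT fresh and 30.6 and 33.0% in KO fresh. After vehicle it was 24.2, 22.0 and 23.7% in WT and 27.1, 27.0 and 25.1% in KO (mean 30.5 against 24.8%, exact permutation p = 0.005, adjusted p = 0.025). The share of Atp5g1 was 15.1% in fresh and 16.5% in vehicle (adjusted exact permutation p = 0.135). Shares in this family rest on the length of 2655.5 bases taken for Atp5g1, and other lengths were not tested. By level, Atp5g1 and Atp5g3 had log2 changes of 0.62 and 0.59 (edgeR adjusted p = 0.0873 and 0.0732). No share passed for PSGL-1 against vehicle (smallest adjusted p = 0.341) or for KO against WT (smallest adjusted p = 0.165) in the same exact permutation test. Without KO PSGL-1 replicate 3, however, 2 shares passed for KO against WT, those of Atp5g1 (-1.62 percentage points, adjusted exact permutation p = 0.01875) and Atp5g2 (1.96 percentage points, adjusted p = 0.03125).

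**Figure D5:**
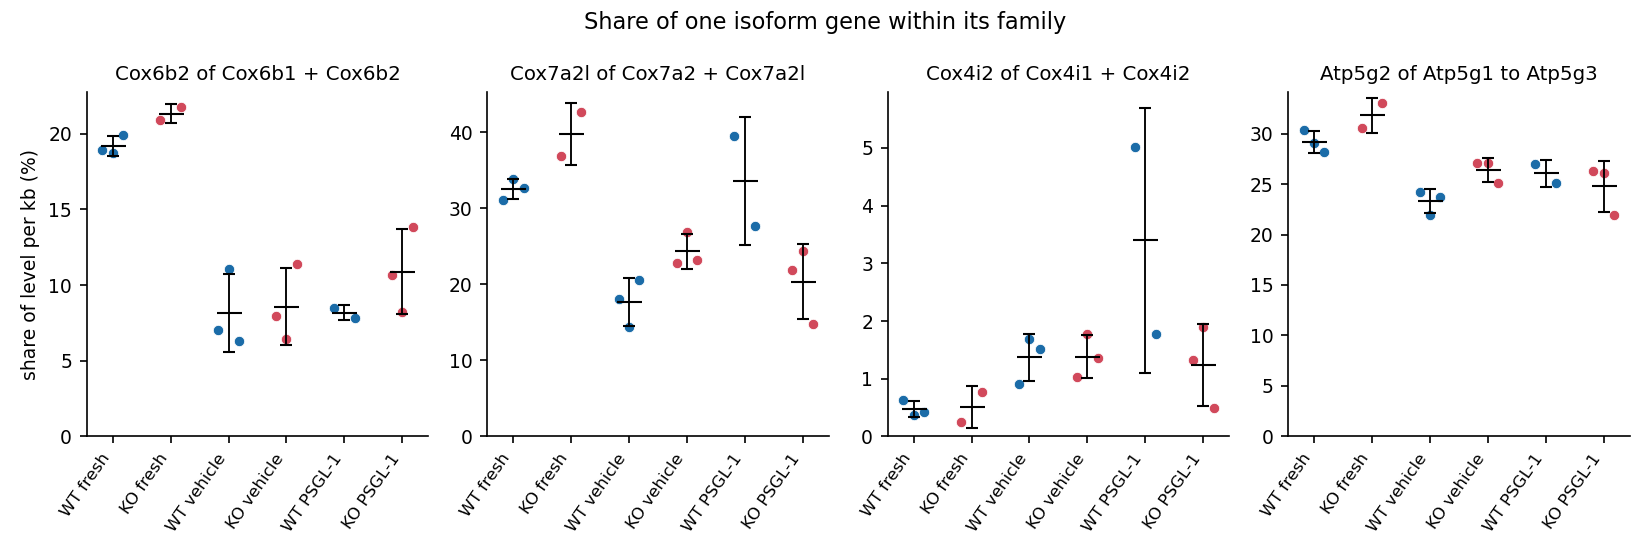
Share in percent of 1 isoform gene within its family, from levels per kilobase, with libraries as points and group means ± SD as bars (blue WT, red KO). Fresh and vehicle libraries do not overlap in any of the 4 panels, for example 18.7 to 21.8% against 6.28 to 11.4% for Cox6b2.

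No member passed the test between Selp genotypes. Among fresh libraries 0 of 78 were called (0.00708% of all tested genes), with a median log2 difference of KO to WT of 0.16, which became -0.32 with KO fresh replicate 1 left out and 0.52 with replicate 2 left out. After vehicle none was called either (0.00708%), and the median was 0.00. After PSGL-1 none was called (0.00708%), with a median of -0.02. Averaged over the 3 conditions none was called (0.0354%), and the median was 0.06, which became -0.12 without KO fresh replicate 1 and 0.17 without replicate 2. In that average 1 member had an unadjusted p under 0.05 (6.84% of all tested genes). Sdhb had a difference of -0.18 (SE 0.13, edgeR adjusted p = 0.952). DESeq2 called none in these 4 comparisons.

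Nor did any member pass for PSGL-1 against vehicle. In WT, 0 of 78 members were called by edgeR or DESeq2 (background 0.0%), 4 had an unadjusted p under 0.05 (5.69%) and the median was -0.04. Uqcrc2, a core protein of complex III, had the smallest p, at -0.90 (SE 0.31, adjusted p = 0.774). Its 2 PSGL-1 libraries were at 79.6 and 150 CPM against 166, 273 and 203 CPM in vehicle. Ndufs3, a core subunit of complex I, followed at -0.79 (SE 0.30, adjusted p = 0.774), with 49.8 and 93.1 CPM against 121, 124 and 127 CPM. In both genes the lower value was that of the sparse library. With that library as the only WT PSGL-1 one, 7 members were called lower, against 17% of all tested genes, whose median was then -0.61. In that fit the lone library is assumed to vary like the other groups. Exons of Ndufs3 and Uqcrc2 overlap those of Kbtbd4 and Pdzd9 on the other strand. Mean levels were 56.5 CPM for Kbtbd4 and 0.293 CPM for Pdzd9, against 112 CPM for Ndufs3 and 177 CPM for Uqcrc2. In KO, 0 of 78 were called by either tool (background 0.0%) and 0 had an unadjusted p under 0.05 (1.4%). The median was -0.07, with Ndufa10 at -0.27 (SE 0.23) and Uqcrfs1, the Rieske iron-sulfur subunit, at -0.27 (SE 0.24), both with an edgeR adjusted p of 1. No member passed the test of the difference in PSGL-1 response between genotypes (0 called, 1 at an unadjusted p under 0.05, with a background of 0.0% called and 4.33% unadjusted).

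Other genes of the pathway were read from lists in the same fit for vehicle against fresh, averaged over genotypes, where 4.18% of all tested genes rose and 2.3% fell. Of 7 chain proteins outside the naming patterns 2 rose, Cycs, which encodes cytochrome c, by log2 1.17 (SE 0.21, edgeR adjusted p = 0.00313) and Cyc1, the cytochrome c1 subunit of complex III, by 0.65 (SE 0.17, adjusted p = 0.0311). Of 52 tested assembly factors only Higd1a, a respiratory chain partner induced by hypoxia, rose (1.25, SE 0.28, adjusted p = 0.0124), and the list's median was -0.07 (0.14 without KO fresh replicate 1). Of 20 genes of the citric acid cycle and pyruvate entry 5 rose and none fell, with a median of 0.18. Among them were the citrate synthase gene Cs (0.79, SE 0.16), Idh3a of isocitrate dehydrogenase (0.85, SE 0.17), Mdh2 (0.63, SE 0.17) and Fh1 (0.58, SE 0.16). Of 25 alternative settings, 12 ended the call of Cyc1 (adjusted p up to 0.131), 14 that of Mdh2 (up to 0.107) and 16 that of Fh1 (up to 0.131). The citric acid cycle list had 2 called without KO fresh replicate 1 and 3 without replicate 2, and the chain proteins 1 in either case.

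Of 22 carrier and import genes 4 rose. Slc25a5, the ADP/ATP exchanger of the inner membrane, rose by log2 1.32 (SE 0.11, edgeR adjusted p = 6.64e-06) and was called in WT (1.19) and in KO (1.44) as well. The translocase genes Tomm40 (0.89, SE 0.18), Timm23 (0.90, SE 0.21) and Timm50 (0.59, SE 0.16) were the others. Timm50 lost its call in 14 of 25 settings (adjusted p up to 0.125) and Timm23 in 1, without KO fresh replicate 2 (0.0650). Without that library 2 genes of this list were called, and without KO fresh replicate 1 there were 3. Of 13 genes of coenzyme Q synthesis 1 fell, Coq8a, an atypical kinase needed for that synthesis, with a log2 change of -3.83 (SE 0.48, adjusted p = 0.000187), -3.77 in WT and -3.89 in KO. None of 20 regulators of mitochondrial gene expression was called, and their median was -0.04. It was 0.18 without KO fresh replicate 1, and 1 regulator was called higher without replicate 2. No gene of these lists was called for PSGL-1 or for genotype.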

How the data were processed

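Libraries were made from HSC RNA with the SMART Ultra-Low Input kit, per the labels' protocols. The deposited table holds the authors' raw counts per gene, made with STAR 2.7.5c and featureCounts on mm10, per the submitters' processing notes, which also list MultiQC 1.10 and DESeq2. These notes and labels do not name the annotation, strand setting or handling of multi-mapping reads.

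Counts of all 16 libraries were fitted with edgeR 4.0.16 in R 4.3.3 (filterByExpr, TMM scaling, robust quasi-likelihood fit, 1 mean per group), and p-values were adjusted over 14124 genes. The script was run on simulated counts with less spread between libraries than these data, whose common coefficient of variation was 0.977. That run says nothing of error rates at the spread seen here. DESeq2 1.42.0, limma 3.58.1, other filters and scalings, replicate blocks and leaving out libraries were alternatives. Members and lists were chosen with earlier results of these data known. Named are called members, the 2 smallest p and extreme levels per complex, isoform families, members at the count threshold and up to 4 called genes per other list. Lengths are medians of RefSeq-linked protein-coding GENCODE M21 transcripts, in place of merged exons, which include retained introns. A few genes are not reported by name here. Kinase genes were removed from the ribosomal protein list. Read counts without molecular identifiers are not independent molecules.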

Additional observations from a re-analysis of the deposited data

How the results depend on the processing

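Across 25 alternative settings, Atp5pb and Uqcrq kept their call for vehicle against fresh, averaged over genotypes, in all, Cox5a in 24, Atp5b in 12 and Ndufa10 in 9. The count of called members in that comparison was 5, and became 8 with DESeq2 (6 higher, 2 lower), 15 with limma (14 higher, 1 lower), 3 without a filter and 16 without both KO fresh replicate 1 and WT PSGL-1 replicate 1, a setting chosen after seeing the data. The count called rose with KO fresh replicate 1 left out and fell with KO fresh replicate 2 left out. Either fit keeps 1 KO fresh library. The members' medians were 0.49 and 0.13 in these fits, against -0.08 and 0.06 over all genes. The counts with DESeq2, limma, no filter or both libraries left out are not set against the share of all tested genes called. The same holds for the WT counts that follow. That share can move with the setting: for KO vehicle against fresh it was 1.77% with edgeR and 5.88% with DESeq2. Higher counts alone therefore do not show more calls among members than among all genes. In WT alone the count of 1 became 3 with DESeq2 and 8 with limma. It was 0 with RLE size factors, without a filter, with only the groups compared and with some single libraries left out. In KO alone the count of 0 became 2 with DESeq2, and was above 0 with some single libraries left out. The KO median of 0.20 was 0.66 without both KO fresh replicate 1 and WT PSGL-1 replicate 1. With 1 library left out it was -0.11 to 0.66. With WT PSGL-1 replicate 1 as the only library of its group, some counts of 0 did not hold. These were WT PSGL-1 against vehicle, KO against WT after PSGL-1 and averaged over conditions, and the PSGL-1 response between genotypes. All-gene medians were then -0.61 in the first and 0.77 in the second, against 0.05 and -0.09 for members. With any other library left out the counts of these comparisons were 0. Limma with library weights moved the median of all genes by -0.21 for WT PSGL-1 against vehicle, 0.16 for KO against WT after PSGL-1 and 0.17 for the difference in PSGL-1 response, with no member called in any of these.

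Deviations of libraries with the same replicate number correlated at -0.07 to 0.08, and 0 of 36 pairs passed 0.1. Grouped by library number instead, they correlated at -0.07 to 0.102, and 1 of 36 pairs passed 0.1. Pairs with different replicate numbers ran from -0.102 to 0.102. Each deviation is from the mean of a small group, so low correlations cannot exclude pairing. Whether the samples were paired thus stays undecided. With a replicate block 3 members were called for culture averaged over genotypes and 0 in WT, and with a block by library number 0 in WT. The share of all tested genes called is not given for these fits.

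For vehicle against fresh the isoform shares kept their direction in all 17 settings that left out libraries, with differences of -12.6 to -11.4 percentage points for Cox6b2. Adjusted exact permutation p rose to 0.0625 in 5 of these for Cox6b2, Cox7a2l and Atp5g2, where fewer arrangements remain, and for Cox4i2 up to 0.0938 in 8. For KO against WT the Cox7a2l share difference of 0.204 percentage points turned in 7 of the 17, and ran from -1.77 to 3.14. For KO against WT averaged over conditions the fit with only the groups compared equals the fit with all libraries. Groups of 2 or 3 libraries limit what could be detected, above all in fresh KO cells.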
